A study of Mus musculus with 6 samples.

Results

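Complex I of the respiratory chain was described through 36 nuclear-encoded subunit genes, taken as the rows of a deposited expression table whose symbols match a fixed list of subunit names. All 36 were found among the 12331 gene rows, and all were at 1 RPKM or more in every library. The values were RPKM (reads divided by gene length and by the library's alignments) from 6 RNA-seq libraries of E14tg2a cells, a mouse embryonic stem cell line grown in serum with LIF, the cytokine that keeps such cells undifferentiated. All libraries began with 10 pg of total RNA of these cells, about what one cell holds. It was reverse transcribed from tagged oligo(dT), tailed, and amplified with 20 PCR cycles. The 3 tagmentation libraries were then made by cutting and tagging 100 ng of the cDNA with hyperactive Tn5 transposase, followed by 13 PCR cycles, and the 3 sonication libraries by acoustic shearing and adaptor ligation. Both groups carry the replicate numbers 1 to 3, which the labels call technical replicates, so p-values here say nothing of separate cultures. Tests of method alone rest on how far the libraries of a method spread. Tests that include the replicate number rest on how the difference between methods varies over numbers, mostly as seen in other genes. The series compared the 2 ways of library making on single-cell amounts of cDNA.

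Complex I takes electrons from NADH, passes them along a flavin and a chain of iron-sulfur clusters in its hydrophilic arm to ubiquinone, and pumps protons through its membrane arm. A core inherited from bacteria does the chemistry, and many accessory subunits surround it and are needed for its assembly or stability. The mitochondrial genome encodes the core of the membrane arm, which is not analysed here, and the nucleus encodes the rest. Embryonic stem cells draw much of their energy from glycolysis but keep a working respiratory chain.

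The libraries had 21007424 to 34681566 alignments after tagmentation and 18852822 to 30296557 after sonication. Markers of the labelled cell type were present, though not each of them in each library. All 10 stem cell markers were at 1 RPKM or more in some library. Their summed level was 1818 to 2618 RPKM after tagmentation and 1450 to 2961 RPKM after sonication. Dppa5a had the highest mean (1047 RPKM) and reached 1625 RPKM in tagmentation library 1 and 1739 RPKM in sonication library 1. Nanog fell to 0 RPKM in number 3 with either method. Klf4 stayed below 1 RPKM in number 1, with 0.141 RPKM after tagmentation and 0.336 RPKM after sonication. The other stem cell markers exceeded 1 RPKM in every library. The summed level of 5 fibroblast markers in the table was at most 9.55 RPKM after tagmentation and 12.1 RPKM after sonication, and the neuroectoderm markers summed to at most 2.43 and 2.61 RPKM. Endoderm markers reached 10.3 RPKM after tagmentation and 9.67 RPKM after sonication, and mesoderm markers 88.5 and 64.1 RPKM. The mesoderm sum was mostly T (brachyury), with 0.209, 83.2 and 12.6 RPKM in tagmentation libraries 1 to 3 and 0.145, 61.3 and 7.08 RPKM in sonication libraries 1 to 3, highest in number 2. Libraries of the same number were far more alike than libraries of the same method, so the methods were also compared with the number as a block (a term of its own in the fit).

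Promoters of 33 of the 36 genes had a RefSeq entry (build GRCm38.p6) and were searched on both strands over 250 bases before the start for motifs of factors known to drive respiratory genes. The letters GCGCA and GCGC with any 1 base between them, the core of the site of nuclear respiratory factor 1 (Nrf1), were found before 6 of them. They were also found before 11.06% of the 4502 tested genes with an entry and 4.233% of all 27025 genes with one. The 6 stretches are shown as the members' matches to the motif of a regulator whose level is given below. Of these genes 5 were lowest in replicate number 1, as were 21 of all 36 members (58.3%) and 35.6% of tested genes. With 6 genes this is a description only, and any link between the motif and the levels was not tested. Each stretch reads 5′ to 3′ along the gene's own strand, with the matching letters, on either strand, in capitals.
Ndufa8, chr2:36049347-36049380, minus strand: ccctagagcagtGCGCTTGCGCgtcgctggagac
Ndufs5, chr4:123718263-123718296, minus strand: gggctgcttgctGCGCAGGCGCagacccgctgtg
Ndufa5, chr6:24527695-24527728, minus strand: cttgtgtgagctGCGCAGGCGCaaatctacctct
Ndufs6, chr13:73328483-73328510, minus strand: gccgactgctgtGCGCCTGCGCcggcac
Ndufb4, chr16:37654538-37654571, minus strand: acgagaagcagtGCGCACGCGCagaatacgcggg
Ndufa11, chr17:56717690-56717723, plus strand: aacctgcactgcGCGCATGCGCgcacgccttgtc
The other letters searched were CCGGAAG of ETS factors (3 of 33 members, 18.95% of tested genes), AANATGGC of Yy1 (5 of 33, 6.553%) and CAAGGTCA of estrogen-related receptors (1 of 33, 1.177%). A match is a description of the letters only, and no match says nothing of the factor.

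Complex I subunit genes were abundant in these stem cells. Their means over all 6 libraries were 24.3 to 355 RPKM, with a median of 102 RPKM, against a median of 14.8 RPKM over the 6327 genes tested (those at 1 RPKM or more in at least 3 libraries). Of the 36, 18 averaged at least 100 RPKM and 8 under 50 RPKM. The subunits' share of the summed RPKM was 1.04%, 1.48% and 1.45% in tagmentation libraries 1 to 3, and 1.08%, 1.41% and 1.37% in sonication libraries 1 to 3. Number 1 had the lowest share with both methods.

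**Figure D1:**
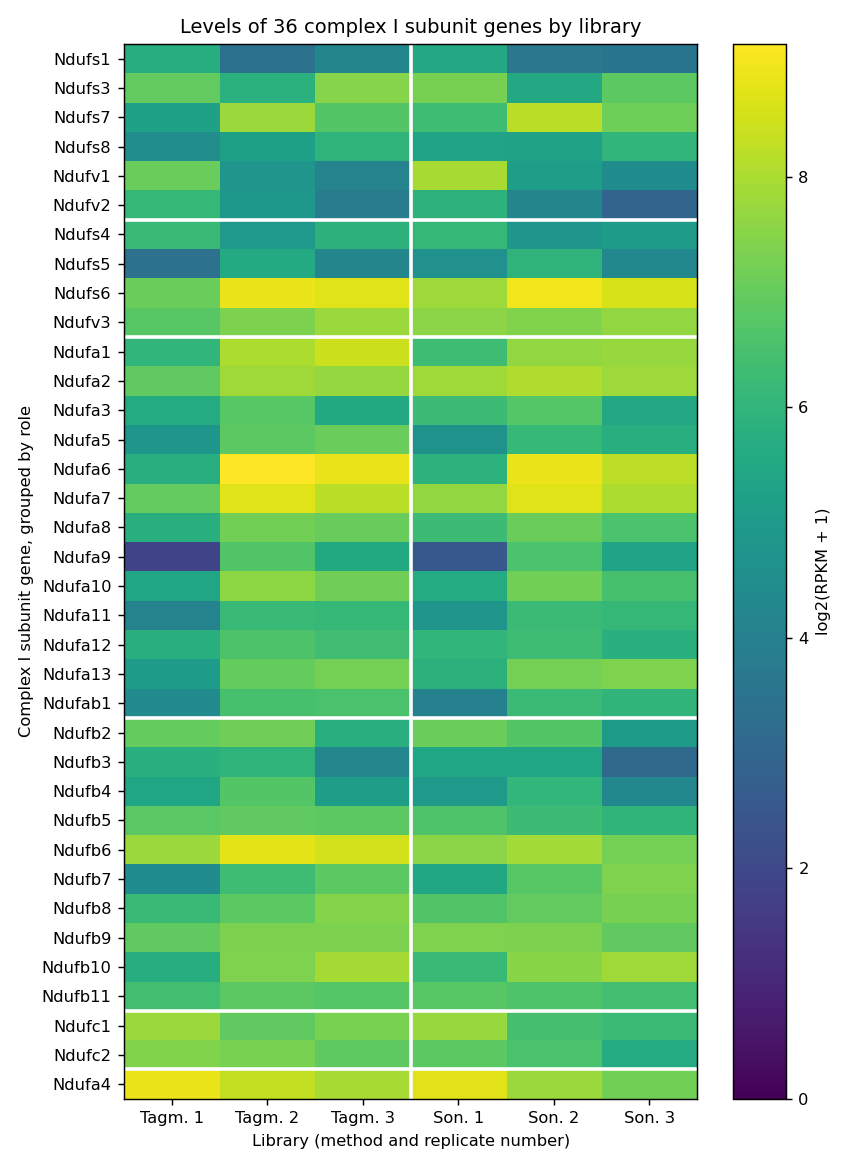
Level of each of the 36 subunit genes (rows, grouped by role with white lines: core, accessory S and V, A, B, C, and Ndufa4) in the 6 libraries (columns, tagmentation left of sonication), as log2(RPKM + 1) on the colour scale. Columns of the same number look alike across methods, and many A subunits, such as Ndufa9 with 2.59 and 4.79 RPKM, are darkest in both libraries of number 1.

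For 30 of the 36 genes the RPKM values and the alignment totals gave whole reads in all 6 libraries (within 0.002 reads plus 1e-05 of the reads, at the smallest gene length that fits), and for 0 when the totals were moved by 1 library. By this fit these genes had 72 to 8009 reads per library, so counting error was small beside the differences below. Such reads, copied by PCR and untagged, do not each stand for a molecule. The length that fit was within 2 bases of a GENCODE length for 5 of the 30 genes, so the reads are inferred and rest on that fit. A search of GENCODE transcripts found another gene with at least 95% identity over at least 200 bases for 11 members. They were mostly processed pseudogenes, as for Ndufs3, Ndufs5, Ndufab1, Ndufa12, Ndufb3, Ndufb4 and Ndufb11, and antisense overlap for Ndufa13, Ndufb5 and Ndufb6. How the authors treated such reads is not given in the sources used here, and these members are uncertain to that extent.

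All 6 core subunits of the hydrophilic arm changed between replicate numbers in the test given below (background 88.1% of tested genes), 4 of them by 4-fold or more (background 58.5%). Ndufs1, which carries iron-sulfur clusters of the electron path, had the lowest mean of all members, with 51.5, 9.63 and 17.4 RPKM in tagmentation libraries 1 to 3 and 45.0, 11.6 and 10.8 RPKM in sonication libraries 1 to 3. Number 1 stood high and the methods overlapped. Ndufv1, which binds the flavin and oxidises NADH, had 133, 26.5 and 16.01 RPKM after tagmentation and 245, 33.8 and 20.9 RPKM after sonication. Its partner Ndufv2 had 68.0, 28.4 and 13.7 RPKM after tagmentation and 59.2, 17.1 and 6.92 RPKM after sonication. All 3 genes were highest in number 1 with both methods. Ndufs7, which holds the cluster next to ubiquinone, ran the other way, with 36.7, 216 and 104 RPKM after tagmentation and 78.5, 295 and 140.2 RPKM after sonication. Number 1 was lowest and number 2 highest with both methods. Ndufs3 and Ndufs8, the other core subunits listed, averaged 112 and 43.4 RPKM and were both highest in number 3 by their means.

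The accessory S subunits held the highest gene of the complex and one of the lowest. Ndufs6, a zinc-binding subunit of the hydrophilic arm, had 137, 469.7 and 420.3 RPKM in tagmentation libraries 1 to 3 and 223, 495 and 384 RPKM in sonication libraries 1 to 3. Number 1 was lowest with both methods. Ndufs5, a subunit of the membrane arm facing the intermembrane space, had 9.64, 47.6 and 17.3 RPKM after tagmentation and 23.9, 60.9 and 18.6 RPKM after sonication, highest in number 2 with both methods. Ndufs4, whose loss causes Leigh syndrome in humans, averaged 47.6 RPKM, and Ndufv3 averaged 175 RPKM.

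Most A subunits had a like profile when both methods were averaged: 12 of 13 were lowest in number 1 and 11 of 13 highest in number 2, by the mean of log2(RPKM + 1). Over all tested genes 35.6%, 25.1% and 39.3% were lowest in numbers 1 to 3, and 39.7%, 38.2% and 22.1% highest. T, the mesoderm marker above, also moved with the number, and any link between T and these profiles was not tested. Ndufa9, a nucleotide-binding subunit where the arms meet, had 2.59, 100.2 and 45.7 RPKM after tagmentation and 4.79, 93.4 and 40.1 RPKM after sonication. By the fit above, its lowest values rested on 72 and 192 reads in the tagmentation and the sonication library of number 1 (exact Poisson 95% intervals 56.3 to 90.7 and 166 to 221 reads, for counting error only). Ndufa6, of the LYR protein family, had 52.6, 569 and 466 RPKM after tagmentation and 60.0, 473 and 305 RPKM after sonication. Ndufa7, another accessory subunit of the hydrophilic arm, had 124, 416 and 294 RPKM after tagmentation and 205, 418 and 263 RPKM after sonication. In both genes number 1 lay below numbers 2 and 3 with each method. Ndufa2, which has a thioredoxin-like fold, varied less, with 120.5, 231 and 209 RPKM after tagmentation and 227, 269 and 221 RPKM after sonication. The exceptions were Ndufa3, lowest in number 3, and Ndufa1 and Ndufa13, highest in number 3. Not every profile was shared by the methods. After sonication alone Ndufa2 and Ndufa12 were lowest in number 3, and after tagmentation alone Ndufa5 and Ndufab1 were highest in number 3. By mean RPKM Ndufa5 was also slightly higher in number 3 (92.2 RPKM) than in number 2 (91.6 RPKM).

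The B and C subunits of the membrane arm, and Ndufa4, did not share that profile. Of 10 B subunits 4 were lowest in number 1 and 6 in number 3. Ndufb3 had 54.6, 60.4 and 17.99 RPKM after tagmentation and 40.8, 40.9 and 8.08 RPKM after sonication, low in number 3 with both methods. Ndufb7, a subunit held by disulfide bonds in the intermembrane space, had 21.1, 79.1 and 113 RPKM after tagmentation and 42.4, 108 and 165 RPKM after sonication, low in number 1 with both. Ndufa4, first listed with complex I and later assigned to complex IV (cytochrome c oxidase), had 469, 318 and 248 RPKM after tagmentation and 429, 219.8 and 148 RPKM after sonication. It was the highest member in number 1 with both methods, while Ndufa6 or Ndufs6 led in numbers 2 and 3. Both C subunits were highest in number 1. Ndufb9 and Ndufb11 hardly moved, with number means of 141 to 162 RPKM and 94.9 to 106 RPKM.

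Between replicate numbers, 28 of 36 subunit genes changed in limma's moderated F test on log2(RPKM + 1) with method as a term (Benjamini-Hochberg adjusted p under 0.05). This is 77.8% of members against a background of 88.1% of tested genes, or 85% of genes averaging 10 to 1000 RPKM. A range of 4-fold or more was reached by 8 members (22.2%), against 58.5% of tested genes and 54.3% of those at 10 to 1000 RPKM. The median range over numbers was 1.58 on the log2 scale for members and 2.38 for all tested genes. The widest ranges were those of Ndufa9 (4.42, adjusted p 7.11e-26), Ndufv1 (3.23, adjusted p 3.04e-16), Ndufa6 (3.18, adjusted p 3.67e-16), Ndufv2 (2.58, adjusted p 1.74e-10), Ndufs7 (2.21) and Ndufb7 (2.15) in the same limma test. The 8 members not called were Ndufv3, Ndufa2, Ndufa12, Ndufb5, Ndufb6, Ndufb9, Ndufb11 and Ndufc2, which does not show that their levels were equal.

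Each number has only 1 library per method, so the test takes as its error how the difference between methods varies over numbers. Most of that error is drawn from other genes. Of the members 14 were called without tagmentation library 2 (background 68%) and 15 without sonication library 2 (background 69.9%). The labels call the numbers technical replicates, so a difference between numbers is not read here as a difference between cells. In these bulk RNA libraries, fewer cells expressing a gene and less RNA per cell cannot be told apart in any case. Nor can a difference between RNA aliquots be told apart from one made in reverse transcription or amplification.

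**Figure D2:**
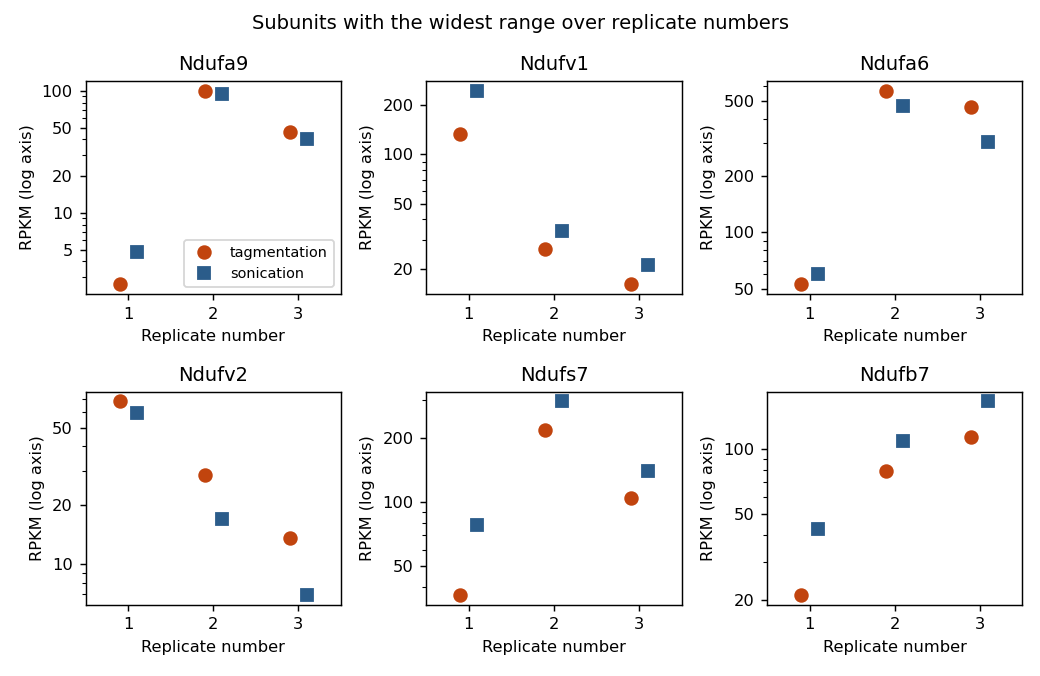
RPKM (log axis) of the 6 subunit genes with the widest range over replicate numbers, for tagmentation (circles) and sonication (squares). The 2 methods lie close at each number, while Ndufa9, Ndufa6, Ndufs7 and Ndufb7 are lowest and Ndufv1 and Ndufv2 highest in number 1.

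The levels of the subunits were alike between methods at each number and between numbers 2 and 3, and less alike between number 1 and the others. Across the 36 members, log2(RPKM + 1) correlated between the methods with r = 0.93, 0.96 and 0.94 at numbers 1 to 3. Within tagmentation r was 0.33 for numbers 1 and 2, 0.39 for 1 and 3, and 0.83 for 2 and 3. Within sonication r was 0.36, 0.41 and 0.86 for these pairs. Genes of one library share its cDNA and depth and are not independent replicates, so these values only describe the libraries. The median SD over 3 libraries was 0.88 for members after tagmentation and 0.79 after sonication, and 1.32 and 1.17 over all tested genes.

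Between methods no subunit was called. Limma's test without the block called 0 of 36 members and 0 of 6327 genes (background 0%), with 0 members and 18 genes at an unadjusted p under 0.05. With the replicate number as a block it called 0 of 36 members, against a background of 3.29% of genes (1.58% called higher and 1.71% lower after tagmentation), with 8 members at an unadjusted p under 0.05. The members' median log2 fold change, tagmentation over sonication, was 0.13 with 20 values above 0 and 16 below, and the median of all tested genes was 0.028. The members' median was -0.04 with quantile normalization, so its direction turned with the scaling. These are values on the log2(RPKM + 1) scale, as are all fold changes here.

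The highest log2 fold changes were those of Ndufc2, Ndufb6 and Ndufa5, and the lowest those of Ndufb7 and Ndufs7. Ndufc2, a C subunit of the membrane arm, had 169.6, 157 and 117 RPKM in tagmentation libraries 1 to 3 and 114, 91.2 and 49.1 RPKM in sonication libraries 1 to 3. The methods did not overlap, and tagmentation was higher in each number (log2 fold change 0.86, SE 0.30 with the block, 95% interval 0.27 to 1.45, limma adjusted p 0.0834). Ndufb6 had 219, 433 and 368 RPKM after tagmentation and 186, 238 and 149 RPKM after sonication (0.80, interval 0.21 to 1.39, limma adjusted p 0.12). Ndufb5 had 110.4, 120.1 and 114 RPKM after tagmentation and 97.9, 75.8 and 62.5 RPKM after sonication (0.56, interval -0.03 to 1.15). Ndufc2 and Ndufb5 were the 2 members whose methods did not overlap, both higher after tagmentation, against a background of 1.88% of genes in that direction and 0.522% in the other.

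Ndufa5, an accessory subunit of the hydrophilic arm, had 27.2, 115 and 131 RPKM after tagmentation and 24.2, 68.5 and 52.9 RPKM after sonication (log2 fold change 0.73, interval 0.14 to 1.32). Ndufb4 had 40.5, 104 and 33.6 RPKM after tagmentation and 29.2, 65.1 and 18.2 RPKM after sonication (0.66, interval 0.08 to 1.24). Ndufb3, with the values above, had 0.68 (interval 0.09 to 1.26). In all 3 genes tagmentation was higher at each number while the numbers spread so widely that the methods overlapped. On the other side stood Ndufb7 (-0.66, interval -1.24 to -0.07) and Ndufs7 (-0.65, interval -1.24 to -0.06), lower after tagmentation at each number. Of the members 11 were higher after tagmentation in 3 of 3 numbers (30.6%, background 19.6%) and 7 lower in 3 of 3 (19.4%, background 14.2%).

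**Figure D3:**
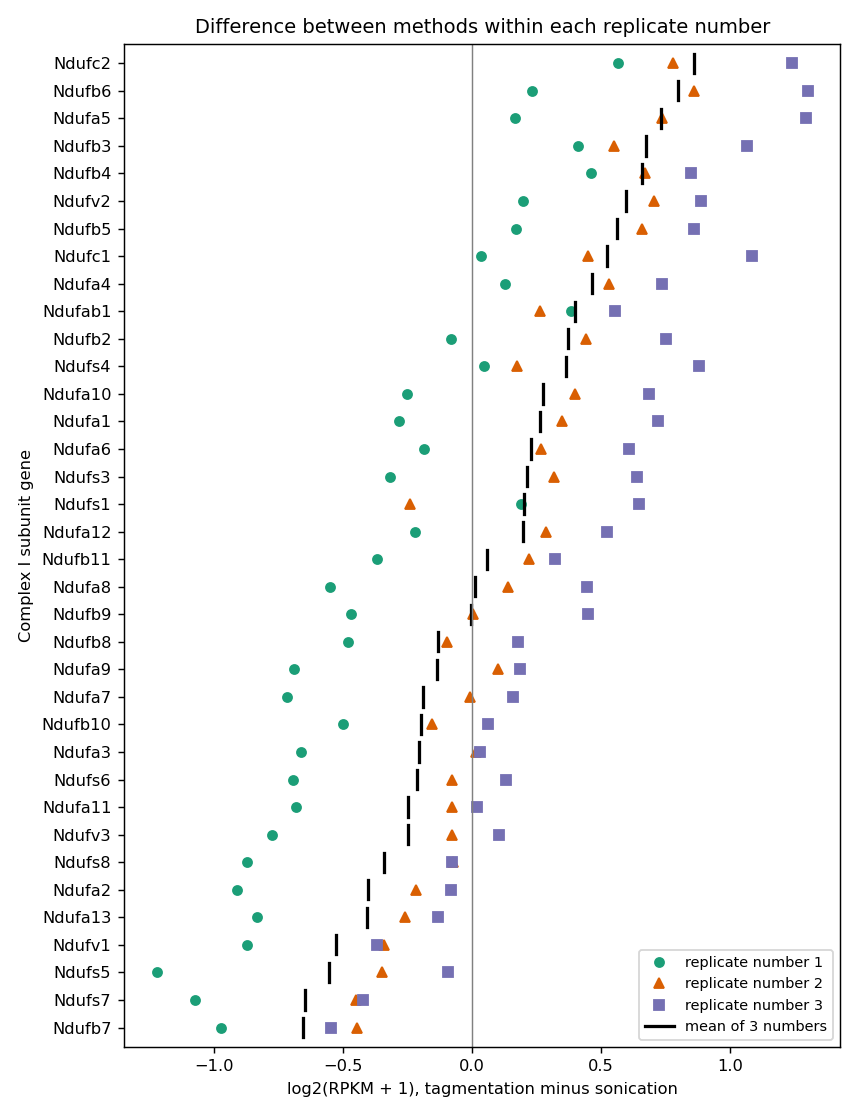
Difference in log2(RPKM + 1), tagmentation minus sonication, of each subunit gene within replicate numbers 1 (circles), 2 (triangles) and 3 (squares), with the mean of the 3 as a short black line, ordered by that mean from Ndufc2 (0.86) to Ndufb7 (-0.66). The circles lie left of the squares for all 36 genes.

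The difference between methods itself depended on the replicate number. Its median over members was -0.34 in number 1, 0.16 in number 2 and 0.49 in number 3, against -0.072, 0.079 and 0.20 over all tested genes. Other abundant genes moved in the same direction. The medians were -0.29, 0.12 and 0.36 over 39 genes of complexes II to V, and -0.17, 0.13 and 0.31 over tested genes averaging 10 to 1000 RPKM. In number 1, 24 of 36 members were lower after tagmentation (56.0% of tested genes), and in number 3, 29 of 36 were higher (65.4% of tested genes). All 36 members had a lower difference in number 1 than in number 3, as had 74.8% of tested genes. With 1 library per method and number, this change across numbers has no replicate check.

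When the libraries were rescaled, some members passed the test. With median-ratio scaling and the block, limma called 7 members higher and 5 lower after tagmentation (33.3% of members, against backgrounds of 4.33% of genes higher and 4.43% lower), with adjusted p of 0.0381 to 0.0454. The 7 were Ndufc2, Ndufb6, Ndufb3, Ndufb4, Ndufv2, Ndufb5 and Ndufa4, with log2 fold changes of 0.35 to 0.75. The 5 were Ndufb7, Ndufs7, Ndufv1, Ndufa13 and Ndufa2, with -0.77 to -0.52. The SEs of these 12 were 0.05 to 0.10, whereas Ndufc2 and Ndufb7 each had 0.30 without scaling. Their log2 fold changes went from 0.86 to 0.75 and from -0.66 to -0.77. The errors thus differed far more than the fold changes, and the counts with and without scaling cannot be compared. The backgrounds cover all tested genes, and genes of a level like that of the members were not compared. With quantile normalization 3 were called higher and 5 lower (backgrounds 3.79% and 3.73%), all 8 of them among the 12. With both libraries of number 1 left out, 12 were called higher and 0 lower (backgrounds 19% and 4.55%). Without either library of number 1 alone, 9 were called higher. The backgrounds were 10.4% higher and 6.08% lower without the tagmentation library, and 9.61% higher and 5.9% lower without the sonication library. All of these settings gave the same log2 fold changes, such as 1.01 for Ndufc2, because only numbers 2 and 3 then compare the methods. They differ in errors and in the genes tested, and are not separate checks.

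The members' differences between methods ran with the GC content of their transcripts. GC content was the median over a gene's protein-coding GENCODE transcripts, which need not be the authors' gene models. Across the 36 members Pearson's r between GC content and the log2 fold change was -0.75 (Spearman's rho -0.76), and r was -0.74, -0.67 and -0.74 in numbers 1 to 3. With the longest transcript of each gene r was -0.66. Over 6265 tested genes Pearson's r was -0.24, and -0.64, -0.02 and 0.03 in numbers 1 to 3. Spearman's rho over these genes was -0.29, and -0.65, -0.20 and -0.09 in numbers 1 to 3. Tested genes include many of low level, and genes of a level like that of the members were not compared. Of the 12 members of lowest GC content (up to 49.9%) 11 had values above 0, with a median of 0.49. Of the 12 of highest GC content (from 54.4%) 10 had values below 0, with a median of -0.25. Transcript length showed no such relation (r = -0.03). These are descriptions across genes that share libraries, and the part of GC content in the differences was not tested. With each library's trend on GC content taken off, an alternative chosen after seeing the data, Ndufc2 had a log2 fold change of 0.68. The value was 0.63 for Ndufb6, 0.59 for Ndufa5 and for Ndufb4, -0.43 for Ndufb7 and -0.41 for Ndufs7. Ndufs5 (-0.57) and Ndufa2 (-0.50) were the lowest members after this correction, and Ndufa13 went from -0.41 to -0.17. Limma with the block then called 0 members and 0 genes, but it had 2.61 prior degrees of freedom against 210 without the correction, so the counts of the 2 fits cannot be compared.

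**Figure D4:**
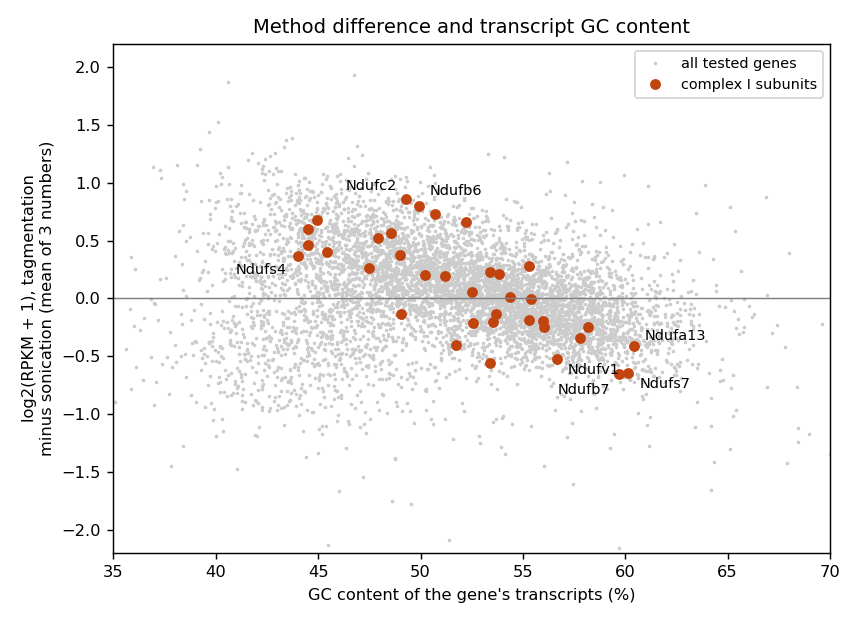
Log2 fold change between methods (tagmentation minus sonication, mean of 3 replicate numbers, y axis) against transcript GC content (x axis, %) for the 36 subunit genes (large points) and all tested genes (small points, 7 of them outside the axes). Of the 12 subunits of lowest GC content 11 lie above 0 and of the 12 of highest 10 lie below, with Ndufb7 (-0.66) and Ndufs7 (-0.65) lowest at the right.

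Coding sequences of the 2 members with the highest and the 2 with the lowest log2 fold change illustrate the contrast. They were picked by that fold change in these data, so their GC content is no separate support for the relation above. The middle 120 bases of each coding sequence (GENCODE, in frame) are shown with G and C in capitals.
Ndufc2, bases 121 to 240: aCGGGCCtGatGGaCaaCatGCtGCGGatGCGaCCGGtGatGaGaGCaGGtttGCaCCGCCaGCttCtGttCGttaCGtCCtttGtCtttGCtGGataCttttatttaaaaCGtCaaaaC
Ndufb6, bases 133 to 252: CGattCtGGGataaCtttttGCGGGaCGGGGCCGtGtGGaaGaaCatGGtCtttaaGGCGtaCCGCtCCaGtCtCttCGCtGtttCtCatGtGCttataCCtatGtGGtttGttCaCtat
Ndufb7, bases 145 to 264: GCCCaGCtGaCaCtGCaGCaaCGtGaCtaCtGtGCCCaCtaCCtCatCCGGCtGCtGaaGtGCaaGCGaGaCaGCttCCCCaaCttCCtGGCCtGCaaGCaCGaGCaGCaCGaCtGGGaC
Ndufs7, bases 277 to 396: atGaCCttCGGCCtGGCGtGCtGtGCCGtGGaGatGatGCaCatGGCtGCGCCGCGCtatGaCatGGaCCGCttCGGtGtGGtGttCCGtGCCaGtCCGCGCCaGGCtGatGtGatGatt
G and C make up 59 of these 120 bases in Ndufc2 and 58 in Ndufb6, against 73 in Ndufb7 and 74 in Ndufs7. Over the whole coding sequences the shares were 50%, 51.3%, 61.1% and 61.6% in that order.

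Other genes of the pathway were read from fixed lists. Of 16 complex I assembly factors 7 were tested, and all 7 changed between numbers by 4-fold or more (background 58.5% of tested genes). Their median range was 4.15 on the log2 scale, against 2.38 over tested genes. The 7 averaged 4.55 (Ecsit) to 38.2 RPKM (Ndufaf2), against a median of 102 RPKM for the subunits. Whether their wide ranges go with their level was not tested. Ndufaf4 was the 1 factor called between methods with the block, higher after tagmentation (log2 fold change 1.09, SE 0.29, limma adjusted p 0.0155), with 4.44, 34.2 and 11.9 RPKM after tagmentation and 2.84, 14.3 and 3.39 RPKM after sonication. Ndufaf2, the factor of highest mean, had 1.33, 68.1 and 77.5 RPKM after tagmentation and 0.971, 48.1 and 32.9 RPKM after sonication. Of 39 genes of complexes II to V, 19 changed between numbers (48.7%, background 88.1%; median range 0.63). Between methods 1 of them was called with the block, the ATP synthase gene Atp5j, lower after tagmentation (-1.04, SE 0.29, limma adjusted p 0.024). It had 13.2, 47.1 and 9.88 RPKM after tagmentation and 34.2, 76.0 and 23.0 RPKM after sonication.

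Regulators of respiratory genes were sparse next to the subunits. Of 11 listed, 7 were tested and 5 changed between numbers, each by 4-fold or more (background 58.5%). Nrf1, whose motif letters are shown above, had 0.616, 37.4 and 16.1 RPKM in tagmentation libraries 1 to 3 and 0.906, 33.0 and 16.2 RPKM in sonication libraries 1 to 3. It was lowest in number 1 and highest in number 2 with both methods, as was Esrra, while the other 5 tested regulators were not lowest in number 1. Any link between the levels of Nrf1 and those of the subunits was not tested. Gabpa, for one, had 35.4, 4.02 and 0.0578 RPKM after tagmentation and 27.5, 2.46 and 0.883 RPKM after sonication. Yy1, the regulator of highest mean, had 35.3, 26.7 and 45.6 RPKM after tagmentation and 21.1, 12.2 and 16.3 RPKM after sonication and was called higher with the block (1.07, SE 0.29, limma adjusted p 0.0199). The calls of Ndufaf4, Atp5j and Yy1 did not hold without the block (limma adjusted p 0.999938 for each), nor with no filter on low values or with the GC correction, where 0 genes were called.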

How the data were processed

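The authors deposited RPKM values per gene, with 1 column per library and none pooled, per the file headers, which also give each library's alignments. The submitters' processing notes name the build mm9, CASAVA 1.7.0 and Partek, with no role. The aligner, the annotation and the treatment of multiply matching reads were not given in the sources used here.

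Values were tested as log2(RPKM + 1), a scale that understates changes of low genes, over the 6327 genes reaching 1 RPKM in 3 or more libraries. Tests used limma 3.58.1 under R 4.3.3 (trend, two-sided, Benjamini-Hochberg over all genes, threshold 0.05) with method as the only term, and again with the replicate number as a block. The labels do not say what a number shares, but same-numbered libraries deviated together from their groups' means (r = 0.95, 0.97 and 0.93 over genes), so the numbers were taken as pairs. The blocked fit took its spread almost wholly from other genes (210 prior degrees of freedom), so its errors reflect a gene's own spread only slightly. GC content was the median over a gene's protein-coding GENCODE transcripts. Alternatives were other pseudocounts, filters and scalings, each library left out, a GC correction and robust eBayes, the last 2 chosen after seeing the data. The scripts were checked on simulated data. The coding and promoter sequences are of GRCm38, matched by gene symbol, and no coordinates of the authors' build are given.

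The members and lists were chosen with earlier results of these data known. Values in every library are given by a rule: the 6 members of highest and 4 of lowest mean, the 6 of widest range over numbers, the 6 of largest change between methods, those whose methods do not overlap, and genes of other lists that were called or led their list by mean. Other genes were named after their values were seen.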

Additional observations from a re-analysis of the deposited data

How the results depend on the processing

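Without the block, limma called 0 genes and 0 members under each pseudocount, filter, scaling and left-out library tried. With the replicate block the count of genes called was 208, and it was 8 with a pseudocount of 0.1, 0 with no filter, 554 with median-ratio scaling, 476 with quantile normalization, 0 with the GC correction. With a library left out it was 987, 7 and 18 without tagmentation replicates 1 to 3 and 925, 5 and 17 without sonication replicates 1 to 3, and with a number left out 1153, 1 and 7. In the blocked fit, leaving out either or both libraries of a number gives a gene the same fold change, so these are not separate checks. Members called with the block were 12 with median-ratio scaling, 8 with quantile normalization, 9 without either library of number 1, 12 without both, and 0 under the other alternatives, the GC correction and robust eBayes chosen after seeing the data among them. The replicate block alone changed no call of a member. The replicate-number test called 3411 genes when only genes averaging 10 RPKM were kept, where fewer genes were tested, and 14 to 32 members with a library left out, at a median range of 1.40 to 1.68. In the fit without the block, the members' median log2 fold change was -0.14 to 0.29 with each library left out. There a left-out library leaves the numbers unequal between the methods. With the block the median was -0.05 to 0.28, so its direction is not fixed by these data in either fit. The cause of these shifts was not tested. RPKM values show no depth of their own, and 3 libraries per method limit the precision.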

Other observations

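Ndufa4l2, a relative of Ndufa4 that is not among the 36 genes, had 4.65, 3.63 and 0 RPKM in tagmentation libraries 1 to 3 and 12.2, 4.35 and 0 RPKM in sonication libraries 1 to 3. With both methods the table lists it at 0 in number 3.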
